A study of Mus musculus with 12 samples.

Results

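The S100 calcium-binding proteins were examined in CT26 cells, a mouse colon carcinoma cell line. The group consisted of 9 genes chosen by symbol, namely S100A1, S100A4, S100A6, S100A8, S100A9, S100A10, S100A11, S100A13 and S100A16, out of 23636 rows in the expression table. The choice was made with results in view, because S100A4 is among the genes with the largest fall after IFN-γ. The comparison of IFN-γ with no treatment is therefore given below as a description without a test. The cells had no treatment, recombinant CX3CL1 at 2 µg/ml, IFN-γ at 100 ng/ml, or CX3CL1+IFN-γ at these concentrations, with RNA taken after 8 hours. The labels give the agents alone, and the concentration of IFN-γ and the time of its arms come from a figure legend of the study. The legend gives no order, but the study's text describes IFN-γ and TNF-α first and CX3CL1 after them. Neither the labels nor the legend name TNF-α for these arms. Each of the 4 groups had 3 libraries that the labels call biological replicates, and the labels do not say what libraries of the same number share. All 12 libraries came from a single cell line, so the results describe CT26 cells in culture. CX3CL1 is a chemokine that binds the receptor CX3CR1, and the study asked what CX3CL1 does to the tumor cells with and without IFN-γ.

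S100 proteins are small proteins with a pair of EF-hand motifs. Most form dimers, bind calcium through these motifs, and change shape on binding it so that they can attach to partner proteins. Inside cells they act on the cytoskeleton, on annexins at membranes and on cell growth, and some are released and act on receptors such as AGER (also called RAGE) and TLR4. S100A4 binds non-muscle myosin and is known for its link to motility and metastasis of carcinoma cells, while S100A8 and S100A9 form calprotectin, a major product of neutrophils and monocytes. Genes that respond to interferons often carry DNA motifs called GAS and ISRE near their start.

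The values are TPM, a transcript's share of all transcripts in a library, corrected for transcript length and summing to 1000000 in each library. The study states a target read depth, but the depth reached in each library is unknown and no counting error is given. Within groups, Pearson's r of log2(TPM + 1) over all genes was between 0.994 and 0.998, and CX3CL1 replicate 2 was the least alike to the others. The treatments left a mark in the libraries. GBP2, an interferon-induced GTPase, had a mean of 10.01 TPM without treatment and 478.5 TPM after IFN-γ. CXCL1, a neutrophil chemokine, had a mean of 4.96 TPM without treatment and 439.5 TPM after CX3CL1. Of 8 colon epithelial markers, only KRT18 and KRT20 had a mean of at least 1 TPM, and EPCAM was at 0 in every library and CDH1 at or near 0, whereas all 4 mesenchymal markers were present, VIM with a mean of 3208 TPM over the 12 libraries. Most of the epithelial markers that fit the label of a colon carcinoma were thus absent or near 0 at the RNA level.

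A set of 4 S100 genes accounted for nearly all of the S100 transcripts in CT26 cells. S100A4 was at 3587, 6966 and 6404 TPM in the 3 untreated libraries. S100A11, which binds annexin A1, was at 3999, 4126 and 5377 TPM. S100A6, also called calcyclin, was at 1770, 2170 and 1837 TPM. These are among the abundant transcripts of the cell, and the untreated levels of S100A4 and S100A11 overlapped. S100A10, the partner of annexin A2 in a membrane complex that binds plasminogen, was at 1057, 1284 and 1217 TPM without treatment. S100A1, best known for calcium handling in heart muscle, was at 100.3, 92.7 and 133 TPM. S100A13, which takes part in the release of FGF1, was at 45.4, 45.9 and 55.2 TPM. S100A16, a widely expressed member, was lower still, at 17.3, 13.99 and 16.2 TPM. S100A8 was between 0 and 0.765 TPM, and S100A9 was listed at 0 in 2 untreated libraries and at 0.165 TPM in the other. In the order of untreated levels, S100A4 and S100A11 were the only neighbours among the 7 most abundant members whose libraries overlapped.

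**Figure D1:**
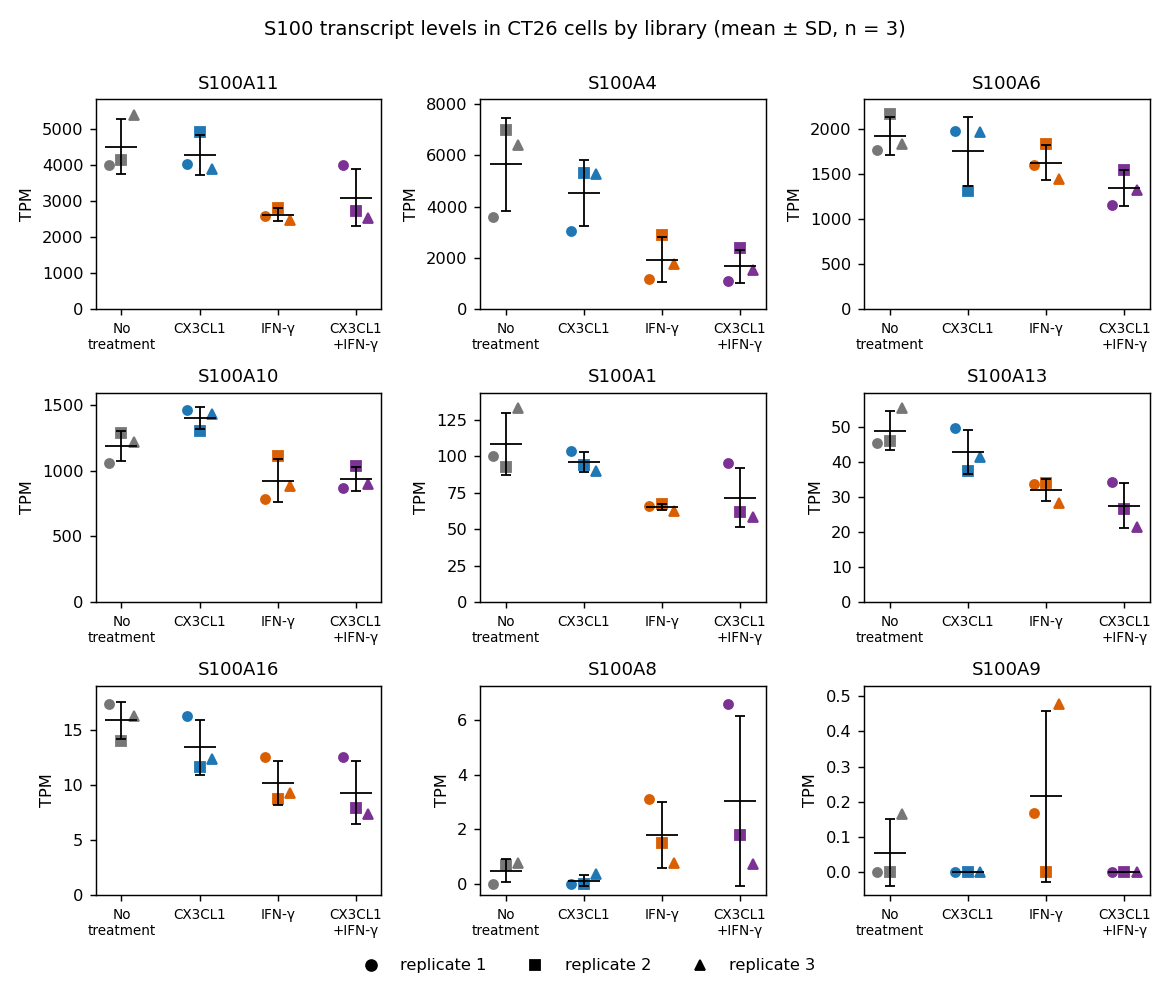
TPM of each of the 9 S100 genes in the 12 libraries of CT26 cells, with 1 panel per gene on its own linear axis, points for libraries (circle, square and triangle for replicates 1, 2 and 3) and bars for the mean ± SD of 3 libraries. The IFN-γ and CX3CL1+IFN-γ libraries of S100A4 sit between 1086 and 2893 TPM, and the untreated and CX3CL1 libraries between 3061 and 6966 TPM.

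The order changed with treatment. After CX3CL1, S100A4 had 4543 ± 1284 TPM (SD, n = 3) and S100A11 had 4265 ± 552 TPM, with overlapping libraries, and S100A6 and S100A10 also overlapped. After IFN-γ, S100A11 had the highest mean, at 2621 ± 169 TPM, S100A4 had 1932 ± 883 TPM and S100A6 had 1630 ± 198 TPM, and each overlapped the next in this order. After CX3CL1+IFN-γ, every S100A11 library, from 2535 to 4005 TPM, was above every S100A4 library, from 1086 to 2368 TPM. S100A4 and S100A6 overlapped in this group, and S100A6 lay above S100A10. Part of the level of S100A11 and S100A4 may belong to other loci, since 47.0% of the 31-base stretches of S100A11 transcripts recur in Gm12854 and 49.2% of those of S100A4 recur in Gm42674, an annotated gene that overlaps it on the same strand. Neither of these is a row of the table, no stretch of 31 bases was shared between members, and how shared reads were counted is not given in the sources used here.

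The comparison of CX3CL1+IFN-γ with CX3CL1 shows what IFN-γ did in cells that also had CX3CL1. It shares no library with the comparison of IFN-γ with no treatment, taken here as the one that led to the choice of members. Its spread was estimated from all 12 libraries, including those used for the choice. Same-numbered libraries of CX3CL1+IFN-γ and IFN-γ deviated together, with correlations from 0.630 to 0.649, so the comparison is not fully independent of the choice. The choice rested on a fall with IFN-γ, and earlier results of these data were known. The p-values and rank of S100A4 here are therefore no independent check of that fall. S100A4 was at 3061, 5307 and 5261 TPM after CX3CL1 and at 1086, 2368 and 1540 TPM after CX3CL1+IFN-γ. Every library with IFN-γ was below every library without it. S100A4 fell by 1.48 on the log2 scale (SE 0.37, 95% interval -2.29 to -0.67, adjusted p = 0.0415 by limma), which is a level 64.1% lower. In these bulk libraries, fewer cells with S100A4 and less S100A4 RNA per cell cannot be told apart. Only 6 of the 11878 genes tested, which all averaged 0.2 TPM or more, had a larger fall, as had only 3 of the 8243 genes that averaged 10 TPM or more.

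S100A10 and S100A13 fell in the same comparison, by less than S100A4. S100A10 was at 1461, 1303 and 1430 TPM after CX3CL1 and at 868, 1036 and 902 TPM after CX3CL1+IFN-γ. The groups did not overlap, and the log2 difference was -0.58 (SE 0.13, adjusted p = 0.0268 by limma). S100A13 was at 49.6, 37.3 and 41.4 TPM after CX3CL1 and at 34.2, 26.7 and 21.4 TPM after CX3CL1+IFN-γ. Its groups did not overlap either, and the log2 difference was -0.64 (SE 0.16, adjusted p = 0.0415 by limma). Thus 3 of the 8 members tested were called lower and none was called higher at an adjusted p under 0.05, where 0.935% of all genes tested were called lower. For these 3 members every CX3CL1+IFN-γ library was below every CX3CL1 library, which was so for 5.48% of all genes tested. The ninth member, S100A9, was not tested because its mean was under 0.2 TPM.

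The other members of the abundant set had values on the same side without a call. S100A11 was at 4009, 4899 and 3887 TPM after CX3CL1 and at 4005, 2726 and 2535 TPM after CX3CL1+IFN-γ, and the first of the combined libraries reached into the CX3CL1 range. Its log2 difference was -0.49 (SE 0.18, adjusted p = 0.163 by limma), and without that library it was -0.69 (adjusted p = 0.0354), the only call among 6 fits that each left out a library, in which the difference ran to -0.36. S100A6 was at 1977, 1315 and 1972 TPM after CX3CL1 and at 1157, 1553 and 1322 TPM after the combination. The low CX3CL1 library was replicate 2, and the log2 difference of S100A6 was -0.37 (SE 0.17, adjusted p = 0.289 by limma) with it and -0.57 (adjusted p = 0.0465) without it, again the only call among 6 such fits, the smallest difference being -0.27. S100A1 had a log2 difference of -0.45 (SE 0.17, adjusted p = 0.185) and S100A16 one of -0.51 (SE 0.19, adjusted p = 0.180). Without CX3CL1+IFN-γ replicate 1 these were -0.66 (adjusted p = 0.0217) and -0.73 (adjusted p = 0.0468), the only call of each among 6 such fits, in which the differences ran to -0.32 and -0.37. S100A1, S100A11 and S100A16 were highest in that library within its group, at 95.3, 4005 and 12.5 TPM. The median log2 difference of the 8 members was -0.50, beside 0.05 over all genes tested.

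**Figure D2:**
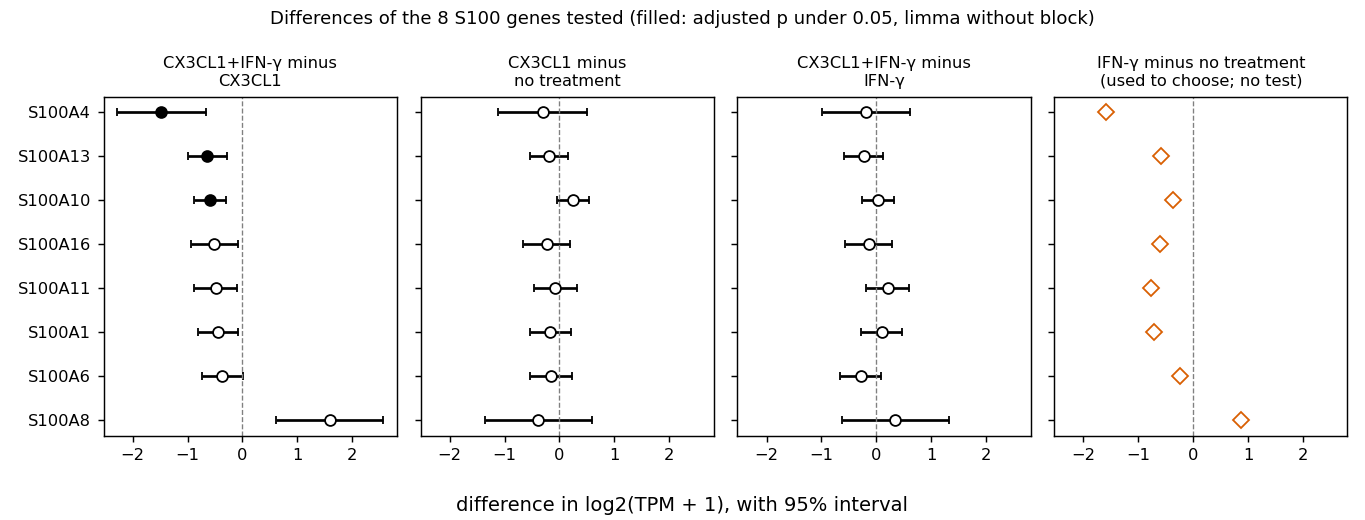
Difference in log2(TPM + 1) for the 8 S100 genes tested, with 1 panel per comparison, circles with the 95% interval from limma without a block, filled circles for an adjusted p under 0.05, and open diamonds without an interval for the comparison that was used to choose the genes. Filled circles appear only in the left panel, for S100A4 at -1.48, S100A13 at -0.64 and S100A10 at -0.58.

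Libraries of the same replicate number moved together in part, which bore on these calls. Their deviations from the group means correlated at 0.351 to 0.428 for CX3CL1+IFN-γ and CX3CL1, but at 0.005 for replicate 2 of CX3CL1 and no treatment. S100A4 was lowest in replicate 1 of every group, at 3587 TPM without treatment, 3061 after CX3CL1, 1157 after IFN-γ and 1086 after CX3CL1+IFN-γ. The ratio of CX3CL1+IFN-γ to CX3CL1 within a number was 0.355, 0.446 and 0.293 for replicates 1, 2 and 3, so that S100A4 was lower in every pair. The replicate number was added as a block in limma, with 1 effect per number over all 4 groups. These include no treatment, whose libraries were not treated as pairs with those of CX3CL1. With this block, the log2 difference of S100A4 was the same and its SE was 0.14 (adjusted p = 9.4e-05 by limma). S100A16 was then called lower (adjusted p = 0.0107), as S100A10 (adjusted p = 0.0082) and S100A13 (adjusted p = 0.0198) still were, and S100A8 was called higher (adjusted p = 0.0467). With the block, 4 of 8 members were thus called lower, beside 2.81% of all genes, and 1 was called higher, beside 8.71%. Without the block, the call of S100A4 was lost when CX3CL1 replicate 2 (adjusted p = 0.0957), CX3CL1 replicate 3 (0.133), CX3CL1+IFN-γ replicate 1 (0.168) or CX3CL1+IFN-γ replicate 3 (0.133) was left out, or when genes with low TPM were kept in (0.110). With the block, an alternative chosen after seeing the data where it was combined with leaving out a library, it held whichever of the 6 libraries was left out, at an adjusted p between 7.7e-05 and 0.00119. Over all 22 alternatives the adjusted p of S100A4 ran from 6.4e-05 to 0.168 and its log2 difference from -1.77 to -1.21.

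The calls of S100A10 and S100A13 were less stable. When only the 6 libraries compared were fitted, S100A4 alone was called (adjusted p = 0.0366), and the adjusted p was 0.0615 for S100A10 and 0.141 for S100A13. Without the block, S100A10 was called when CX3CL1 replicate 2 or CX3CL1+IFN-γ replicate 2 was left out, and its adjusted p was between 0.0801 and 0.112 without any of the other 4 libraries. S100A13 was called without CX3CL1 replicate 2 or CX3CL1+IFN-γ replicate 1, and its adjusted p was between 0.0863 and 0.180 without any of the other 4. With the block, S100A10 and S100A16 were each called in 5 of 6 fits that left out a library, and S100A13 in 2 of 6, with an adjusted p of up to 0.104.

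**Figure D3:**
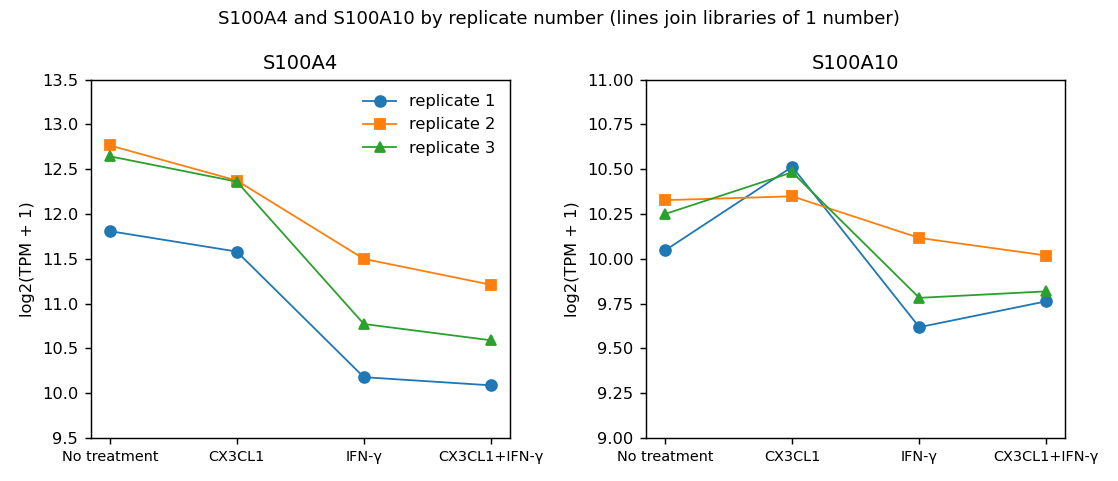
Level of S100A4 (left) and S100A10 (right) as log2(TPM + 1) in the 4 groups, with a line for each replicate number and an axis that does not start at 0. For S100A4 each of the 3 lines falls from CX3CL1 to CX3CL1+IFN-γ and replicate 1 is lowest in every group, while replicates 2 and 3 meet after CX3CL1, at 5307 and 5261 TPM, and lie apart after the combination, at 2368 and 1540 TPM, and for S100A10 the highest points are CX3CL1 replicates 1 and 3, at 1461 and 1430 TPM.

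CX3CL1 alone did not lead to a call for any member. None of 8 was called by limma, at an adjusted p under 0.05, against untreated cells, where 1.95% of all genes tested were called in either direction, and none had an unadjusted p under 0.05. For S100A4, whose untreated libraries also entered the comparison used to choose it, the log2 difference was -0.30 (SE 0.37, 95% interval -1.11 to 0.51). Its ratios to the untreated library of the same number were 0.853, 0.762 and 0.822, though the libraries of these 2 groups were not treated as pairs. S100A10 was the member with the smallest adjusted p, 0.826, and a log2 difference of 0.24 (SE 0.13, 95% interval -0.05 to 0.53). Each of its CX3CL1 libraries, at 1461, 1303 and 1430 TPM, was above each untreated library, the highest of which was at 1284 TPM, a separation in this direction that 5.50% of all genes tested had. The intervals of S100A1, S100A6, S100A11, S100A13 and S100A16 all included 0, with log2 differences from -0.23 for S100A16 to -0.07 for S100A11.

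Adding CX3CL1 to IFN-γ likewise led to no call by limma. None of the 8 members had an adjusted p under 0.05 or an unadjusted p under 0.05 when CX3CL1+IFN-γ was compared with IFN-γ, where 0.362% of all genes were called, or 0.800% with the replicate block, under which no member was called either. The IFN-γ libraries of this comparison are the ones by which S100A4 was chosen. S100A4 was at 1157, 2893 and 1747 TPM after IFN-γ and at 1086, 2368 and 1540 TPM after CX3CL1+IFN-γ. The groups overlapped almost fully, and the log2 difference was -0.19 (SE 0.37, 95% interval -0.997 to 0.623). Within a number the ratio was 0.939, 0.819 and 0.881, lower in every pair, and with the block the SE was 0.14 (adjusted p = 0.734 by limma). S100A6 was lower in every pair too, with ratios of 0.724, 0.843 and 0.912 (adjusted p with the block 0.719 by limma). S100A6 had a log2 difference of -0.28 (SE 0.17, 95% interval -0.66 to 0.09), S100A13 one of -0.23 (SE 0.16) and S100A11 one of 0.21 (SE 0.18). Whether the difference that IFN-γ made to S100A4 depended on CX3CL1 was not tested.

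Against untreated cells, IFN-γ alone gave the values by which the members were chosen. S100A4 was at 3587, 6966 and 6404 TPM without treatment and at 1157, 2893 and 1747 TPM with IFN-γ, a log2 difference of -1.59. Only 4 of the 11878 genes tested had a larger fall. S100A11 went from a mean of 4501 ± 762 TPM to 2621 ± 169 TPM, a log2 difference of -0.77. S100A1 went from 108.7 ± 21.4 TPM to 65.4 ± 2.31 TPM, a log2 difference of -0.71. The log2 difference was -0.60 for S100A16 and -0.60 for S100A13. These 5 members had every IFN-γ library below every untreated one, as had 13.7% of all genes tested. S100A10, with a log2 difference of -0.37, and S100A6, with -0.24, had overlapping groups, and S100A8 had a log2 difference of 0.86. Beside these, the values of CX3CL1+IFN-γ against CX3CL1 were -1.48 for S100A4, -0.49 for S100A11, -0.45 for S100A1, -0.51 for S100A16, -0.64 for S100A13, -0.58 for S100A10, -0.37 for S100A6 and 1.59 for S100A8.

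The sum of the 9 members made up 1.34% ± 0.25 of all TPM without treatment (SD, n = 3), 1.21% ± 0.13 after CX3CL1, 0.722% ± 0.135 after IFN-γ and 0.714% ± 0.070 after CX3CL1+IFN-γ. S100A4 made up 41.3% ± 6.8 of this sum without treatment and 37.0% ± 7.2 after CX3CL1, and 25.9% ± 7.2 after IFN-γ and 23.2% ± 7.8 after the combination. Its shares after CX3CL1 and after the combination overlapped, at 28.7% in CX3CL1 replicate 1 and 30.4% in CX3CL1+IFN-γ replicate 2. The share of S100A11 was 33.9%, 35.3%, 36.9% and 43.3% in the same order. Without S100A4, the sum of the other 8 members was 7571 ± 121 TPM after CX3CL1 and 5479 ± 668 TPM after CX3CL1+IFN-γ, and the libraries of these groups did not overlap for this sum. Since TPM are shares of a fixed total, fewer S100 transcripts and more of other transcripts cannot be told apart. With libraries scaled by median ratios instead, the log2 difference of S100A4 between CX3CL1+IFN-γ and CX3CL1 was -1.55 (adjusted p = 0.0485 by limma).

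**Figure D4:**
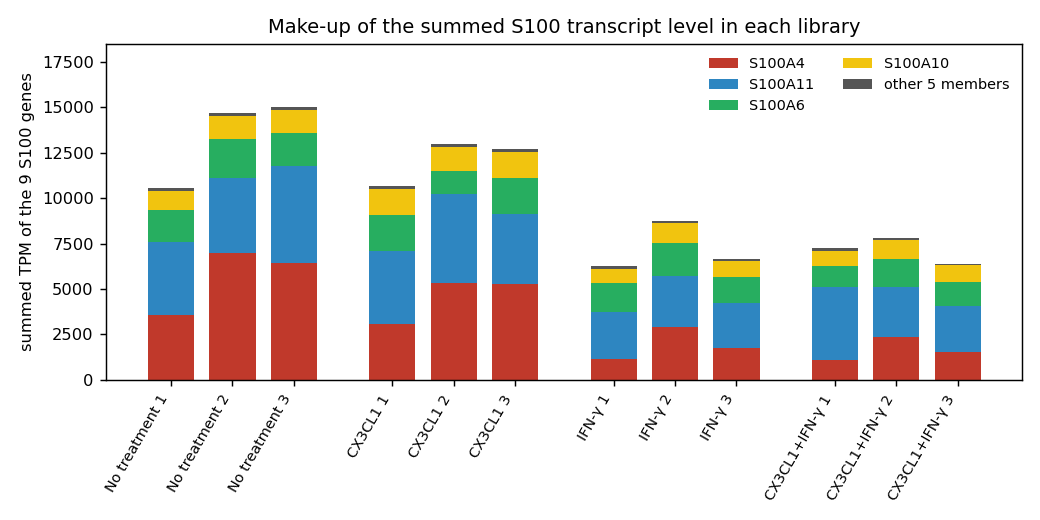
Summed TPM of the 9 S100 genes in each of the 12 libraries, as bars from 0 that are divided into S100A4, S100A11, S100A6, S100A10 and the other 5 members together. The bars without IFN-γ reach from 10580 to 15040 TPM and those with IFN-γ from 6239 to 8761 TPM. The S100A4 part is the one whose mean share is lower with IFN-γ. Its shares overlap, at 28.7% in CX3CL1 replicate 1 and 30.4% in CX3CL1+IFN-γ replicate 2.

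S100A8 and S100A9, the calprotectin subunits, were at the bottom of the range. S100A8 passed the filter with a mean of 1.36 TPM over the 12 libraries. Most of that mean came from the groups with IFN-γ, at 1.79 TPM after IFN-γ and 3.05 TPM after CX3CL1+IFN-γ. The mean was 0.485 TPM without treatment and 0.117 TPM after CX3CL1. S100A8 was at 0, 0 and 0.349 TPM after CX3CL1 and at 6.60, 1.80 and 0.743 TPM after CX3CL1+IFN-γ. Every CX3CL1+IFN-γ library was above every CX3CL1 library, as was so for 1664 of the 11878 genes tested. The libraries of these groups lay apart in either direction for 19.5% of all genes tested. Replicate 1 stood well above the others. The log2 difference was 1.59 (SE 0.45, adjusted p = 0.0671 by limma), and with the replicate block the adjusted p was 0.0467. After IFN-γ alone S100A8 was at 3.11, 1.51 and 0.744 TPM. Without treatment it was at 0, 0.689 and 0.7655 TPM, so the untreated and IFN-γ libraries overlapped. Both the size and the call depended on the setting. The log2 difference was 3.74 (adjusted p = 0.0374) with a pseudocount of 0.1 TPM and 0.999 (adjusted p = 0.201) without CX3CL1+IFN-γ replicate 1, the call with the block held in 2 of 6 fits that left out a library, and over the 22 alternatives the adjusted p ran from 0.0258 to 0.201. S100A9 was listed at 0 in 9 of 12 libraries, among them every CX3CL1+IFN-γ library. It reached 0.480 TPM in IFN-γ replicate 3, where S100A8 was at 0.744 TPM. Values this near 0 cannot show whether the partner of S100A8 was absent. Myeloid and other leukocyte markers were low in the same libraries. Of 10 markers only CD68, which tumor cells can also express, had a mean of at least 1 TPM in any group, the pan-leukocyte marker PTPRC reached 0.0441 TPM at most, and the summed level of the list was 8.28 to 22.1 TPM after CX3CL1 and 10.2 to 27.6 TPM after CX3CL1+IFN-γ. The highest CD68 value, 26.98 TPM, was in the same library as the highest S100A8 value, and the part of such cells in the S100A8 result was not tested.

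The other S100 genes of the table were low, except S100A7A. Of 11 further symbols of the family 8 were in the table and 5 passed the filter. S100A7A, a skin-associated member, was between 65.5 and 149.9 TPM, on the level of S100A1. S100A3, a hair follicle protein, had a mean of 3.62 TPM and S100A2 one of 1.61 TPM, S100A5 and S100A14 were under 1 TPM, S100B and S100G were at or near 0, and S100Z was at 0. None of the 5 was called by limma in CX3CL1+IFN-γ against CX3CL1, and 1 of them, S100A3, had an unadjusted p under 0.05, with a log2 difference of -0.42 (SE 0.15, adjusted p = 0.149). S100A7A had a log2 difference of -0.32 (SE 0.29), and like S100A4 it was lowest in replicate 1 of each of the 4 groups. The median of the 5 was -0.32. In the other comparisons with a test none was called by limma either, and 1 had an unadjusted p under 0.05 in each, S100A5 for CX3CL1 against no treatment and S100A3 for CX3CL1+IFN-γ against IFN-γ.

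Receptors for released S100 proteins were present in part. AGER had a mean of 0.445 TPM and TLR4 one of 11.8 TPM. BSG, which binds S100A9, had a mean of 409 TPM, its relative NPTN 109.6 TPM and ERBB2 17.0 TPM, whereas ALCAM and CD36 were at 0 and MCAM and EGFR near 0. None of the 5 tested was called by limma in any of the 3 comparisons, with the block or without it. ERBB2 alone had an unadjusted p under 0.05 in CX3CL1+IFN-γ against CX3CL1, with a log2 difference of 0.27 (SE 0.12, adjusted p = 0.268).

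Among 26 intracellular partners, 23 were tested, and 1 was called lower in CX3CL1+IFN-γ against CX3CL1. This was ANXA1, the annexin bound by S100A11, which was at 1072, 1025 and 991 TPM after CX3CL1 and at 411.5, 668 and 601 TPM after CX3CL1+IFN-γ. The groups did not overlap, and the log2 difference was -0.91 (SE 0.17, adjusted p = 0.0079 by limma). ANXA2, the partner of S100A10, was at 2107, 2167 and 2156 TPM after CX3CL1 and at 1507, 2003 and 1626 TPM after the combination. Its log2 difference was -0.34 (SE 0.13), with an adjusted p of 0.173 by limma and of 0.0441 with the replicate block. AHNAK, a large scaffold protein bound by the S100A10 and annexin A2 complex, had a log2 difference of -0.45 (SE 0.14, adjusted p = 0.0886, with the block 0.0121). With the block MYH14 was also called lower (log2 difference -0.52, adjusted p = 0.0117 by limma). Thus 1 of 23 partners was called lower without the block, beside 0.935% of all genes tested, and 4 of 23 with it, beside 2.81%. MYH9, the heavy chain of the non-muscle myosin that S100A4 binds, had a log2 difference of 0.02 (SE 0.12), CACYBP, the calcyclin-binding protein, one of -0.22 (SE 0.15), and ANXA5, ANXA6 and ANXA11 had -0.11, 0.40 and 0.04, and FGF1 was near 0 TPM. Over the 23 partners the median was -0.05, so the list lay on the other side of 0 from the median of all genes, 0.05, by a small amount.

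Other proteins with EF-hands were examined for comparison. Of 35 listed, 27 were tested, and 1, RCN2, a calcium-binding protein of the endoplasmic reticulum, was called lower in CX3CL1+IFN-γ against CX3CL1, with a log2 difference of -0.57 (SE 0.14, adjusted p = 0.0409 by limma). With the replicate block CAPN2, CETN2, MYL12B and SPARC were called lower as well, with log2 differences of -0.35, -0.44, -0.29 and -0.40. Thus 1 of 27 was called lower without the block, beside 0.935% of all genes tested, and 5 of 27 with it, beside 2.81%. The median of the 27 was -0.13. No EF-hand protein of this list outside the S100 family had a fall as large as S100A4. Since S100A4 was chosen for a large fall with IFN-γ, this says little about the list. For CX3CL1 against no treatment and for CX3CL1+IFN-γ against IFN-γ, none of the partners or EF-hand proteins was called by limma without the block. With the block ACTN1 was called higher after CX3CL1 (log2 difference 0.35, adjusted p = 0.0096 by limma). The counts at an unadjusted p under 0.05 were 5, 2 and 1 of 23 for the partners and 7, 3 and 0 of 27 for the EF-hand proteins, in CX3CL1+IFN-γ against CX3CL1, CX3CL1 against no treatment and CX3CL1+IFN-γ against IFN-γ, where 17.7%, 8.07% and 4.35% of all genes tested had such a p. The mesenchymal and fibroblast markers had differences of both signs in CX3CL1+IFN-γ against CX3CL1. The log2 difference was -0.57 for VIM, -0.35 for FN1, -0.11 for CDH2 and 0.15 for ZEB1, and none of these was called by limma without the block, where VIM alone had an unadjusted p under 0.05, while VIM (adjusted p = 0.0138) and FN1 (adjusted p = 0.0202) were called lower with it. Of the fibroblast markers, DCN was called higher (log2 difference 0.95, adjusted p = 0.0025), though at a mean of only 0.798 TPM, and COL1A1, PDGFRA and PDGFRB had -0.57, 0.69 and -0.06. With the block COL1A1 was called lower (adjusted p = 0.0382) and PDGFRA higher (adjusted p = 0.0174). The ratio of S100A4 to VIM was 0.995, 1.37 and 1.62 after CX3CL1 and 0.645, 0.755 and 0.681 after CX3CL1+IFN-γ. The 2 groups of ratios did not overlap, and the part of VIM and FN1 in the S100A4 result was not tested.

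All 9 members lie on chromosome 3 (annotation GENCODE vM21, build GRCm38, which is mm10). S100A1 lies at chr3:90511034-90514392 on the minus strand, and S100A13 starts 43 bases away at chr3:90514435-90524581 on the plus strand, so the pair is arranged head to head. S100A16 (chr3:90537254-90543151), S100A4 (chr3:90603771-90606045), S100A6 (chr3:90612882-90624181) and S100A8 (chr3:90668978-90670035) follow on the plus strand and S100A9 (chr3:90692632-90695721) on the minus strand. S100A11 (chr3:93520488-93526287) and S100A10 (chr3:93555080-93564643) lie further on at 3009 and 3044 kb from the start of S100A1, beyond genes of skin cornification. S100A1 and S100A13, which share their upstream region, deviated together from their group means, with r = 0.851 over the 12 libraries, as did S100A1 and S100A11, with r = 0.871, which lie far apart. S100A4 and S100A16 deviated in opposite directions, with r = -0.817. These r share libraries and are given as a description.

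The tested genes around the S100 genes were few, and none of them was called lower. Of 126 annotated genes other than S100 genes from 200 kb before to 200 kb after the outermost members, 64 were in the table and only 7 were tested. None was called by limma in CX3CL1+IFN-γ against CX3CL1, and 1, CRCT1, had an unadjusted p under 0.05, with a log2 difference of 0.93 (adjusted p = 0.143, with the block 0.0372). The other 6 had log2 differences from -0.06 for CHTOP to 0.16 for GATAD2B. Among them ILF2 and SNAPIN, which start 34.9 and 23.0 kb before S100A1, had differences of 0.00 and 0.03.

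**Figure D5:**
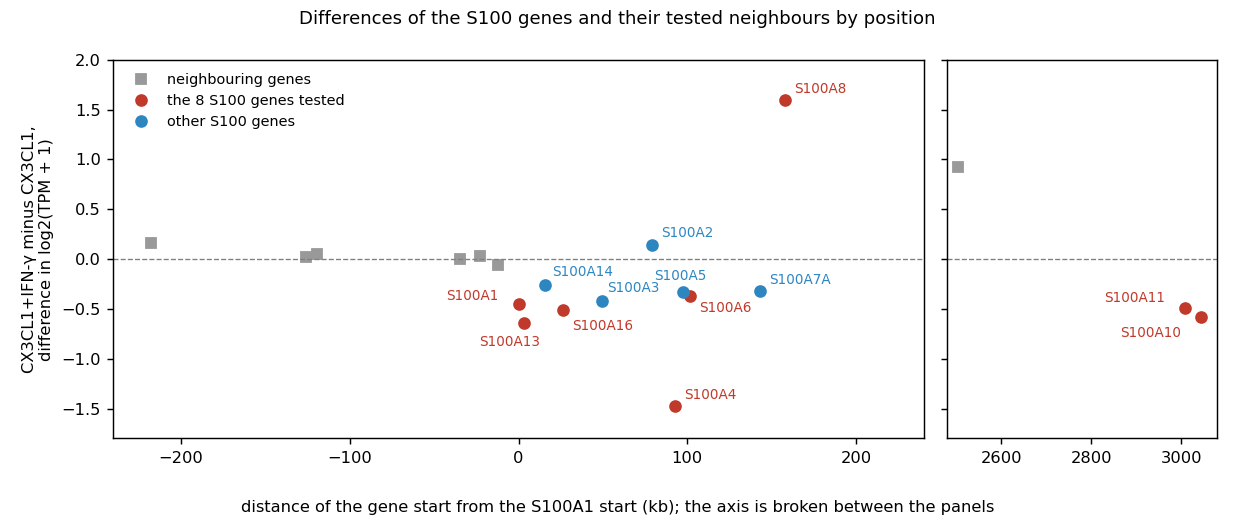
Difference in log2(TPM + 1) of CX3CL1+IFN-γ against CX3CL1 for the 8 S100 genes tested (red circles), the other 5 S100 genes tested (blue circles) and 7 neighbouring genes (grey squares), against the distance of the gene start from that of S100A1 in kb, with a break in the axis between the panels. The nearest neighbours sit between -0.06 and 0.16 and S100A4 sits at -1.48, between S100A2 at 0.15 and S100A5 at -0.33.

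Promoter windows of 300 bases from RefSeq (GRCm38.p6), from 250 bases before to 50 after the start, were given for 8 of the 9 members and searched on both strands for GAS (TTCNNNGAA), the ISRE core (GAAANNGAA), the kB motif of NF-kB, and TATAAA, the last one added after the upstream bases of S100A4 had been seen. The GAS motif was found in 8.30% of all 32851 windows, the ISRE core in 8.56%, kB in 5.80% and TATAAA in 13.6%. No window of a member held GAS or kB. The ISRE core was found in S100A1, 214 bases before the start, and in 1 of 2 windows of S100A16, 190 bases before the start. TATAAA was found 31 bases before the start of S100A4 and 30 bases before that of S100A8, and at the start in S100A9. No match overlapped another. These matches are letters in a window and were not tested for binding. The upstream bases of S100A4 are shown because it had the largest fall of the members, and those of S100A16 because its window held an interferon motif and its call depended on the block. They are the 250 bases before the start, 5′ to 3′ on the plus strand, chr3:90603520-90603769 for S100A4 with TATAAA in capitals, and chr3:90537004-90537253 for S100A16 with the match of the ISRE core on the other strand in capitals.
S100A4: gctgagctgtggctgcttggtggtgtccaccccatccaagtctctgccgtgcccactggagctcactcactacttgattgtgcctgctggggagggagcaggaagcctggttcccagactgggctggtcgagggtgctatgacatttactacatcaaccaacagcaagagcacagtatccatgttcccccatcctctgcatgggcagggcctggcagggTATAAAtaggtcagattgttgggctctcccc
S100A16: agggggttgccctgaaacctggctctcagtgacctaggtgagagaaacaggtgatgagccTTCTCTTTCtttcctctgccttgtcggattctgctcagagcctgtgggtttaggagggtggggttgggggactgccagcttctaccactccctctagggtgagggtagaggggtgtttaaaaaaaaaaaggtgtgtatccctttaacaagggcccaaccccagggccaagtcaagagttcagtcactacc

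The 9 members have short transcripts, which give fewer fragments than long ones at the same TPM. The median transcript length was 417 nucleotides for S100A4 and up to 801 for S100A16, beside a median of 1349 over the genes tested with a known length. The tenth of genes with the shortest transcripts had a median log2 difference of 0.01 in CX3CL1+IFN-γ against CX3CL1, and the tenth with the longest one of 0.07. After centring each library by GC content and length, an alternative chosen after seeing the data, the log2 difference of S100A4 was -1.50 (adjusted p = 0.0429 by limma), and S100A10 and S100A13 were again called lower.

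Among the 8242 other tested genes that averaged 10 TPM or more, those most like S100A4 in log2(TPM + 1) over the 12 libraries were CCT5 (Pearson's r = 0.978), a chaperonin subunit, KLK10 (0.970), a secreted serine protease, ATP5C1 (0.970) and NDUFA4 (0.967) of the mitochondrial energy chain, and RPL7 (0.969), a ribosomal protein. KLK10 went from 81.7 TPM without treatment to 42.9 TPM after IFN-γ and NDUFA4 from 1284 to 583 TPM. CCT5 went only from 748.6 to 647 TPM, so a like pattern across libraries did not mean a like size of change. Least like S100A4 were FAM129A (-0.989), TMEM173 (-0.983), also known as STING, and ESYT1 (-0.979). Among the members, S100A10 was most like S100A4, with r = 0.855, then S100A11 (0.698), S100A13 (0.680), S100A6 (0.656), S100A1 (0.615) and S100A16 (0.438). These values rest on the same 12 libraries and on differences between the groups as well as on differences within them.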

How the data were processed

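The CT26 libraries, 3 in each of 4 groups, were grouped by their labels. The authors made strand-specific mRNA libraries and aligned reads to mm10 with STAR 2.7.3a, and the submitters' processing notes also name DESeq2 1.22.1. The deposited values are TPM, and how the authors computed TPM from counts is not given in the sources used here. The depth reached in each library is unknown, as the study states only a target. Precision is therefore the spread between 3 replicates, and p-values measure only that spread.

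From these TPM, log2(TPM + 1) was tested with limma 3.58.1 in R 4.3.3 (lmFit, eBayes with an intensity trend) for the 11878 of 23636 rows that averaged 0.2 TPM or more, in 1 fit of all 12 libraries without a block. P-values were adjusted by Benjamini-Hochberg over all genes within each of 3 comparisons, with a threshold of 0.05. An exact permutation test of 3 against 3 cannot give a p under 0.1. Tested on simulated data for CX3CL1+IFN-γ against CX3CL1 with 11878 genes, the fit found 179 of 200 genes with a simulated log2 change of -1 and 199 of 200 with one of -2, and made 6 and 11 false calls. The simulated noise was independent between libraries, and changes were placed only in genes above about 10 TPM. These rates therefore do not cover genes near 0 or the correlation between same-numbered libraries.

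The labels number the replicates alike in each group. Deviations from the group means of same-numbered libraries correlated across genes at 0.351, 0.353 and 0.428 for CX3CL1+IFN-γ and CX3CL1, and at 0.630, 0.635 and 0.649 for CX3CL1+IFN-γ and IFN-γ, so the numbers were treated as pairs there. The pairing comes from these correlations, not from a stated design. Alternatives changed the pseudocount to 0.1, dropped the filter or raised it to 1 TPM, scaled libraries by median ratios or quantiles, left out the trend, fitted only the 6 libraries compared, added the replicate block, or left out each library. Centring by GC content and length (10 bins of each), and the block with each library left out, were added after seeing the data. The members and the gene lists were chosen with earlier results of these data known. Named genes are the members, the other S100 genes above 1 TPM or needed to account for the family, all receptors, annexins, any partner, EF-hand or neighbour gene called with or without the block, the 5 genes most and 3 least like S100A4, and, of 5 treatment checks, GBP2 and CXCL1. CHTOP, GATAD2B, ILF2, SNAPIN, AHNAK, MYH9, CACYBP, FGF1 and the markers were named after their values were seen. Promoter sequences are from RefSeq (GRCm38.p6).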

Additional observations from a re-analysis of the deposited data

How the results depend on the processing

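In CX3CL1+IFN-γ against CX3CL1, S100A4 fell in the main analysis and in all 22 alternatives, and the members called numbered 3. The log2 difference of S100A4 kept its call in 9 of 10 alternatives that used every replicate, and was -1.48 without the filter on low TPM, where the adjusted p was 0.110. The count of members called was 0 without the filter, 5 with the replicate block, 5 with centring by GC content and length with the block, and 1 with only the 6 libraries compared. Leaving out 1 library gave 0 to 4 members called without the block and 2 to 6 with it, and a log2 difference of S100A4 from -1.77 to -1.21 without the block and from -1.61 to -1.37 with it. The genes called over all genes numbered 558, 1369 with the block, 2110 with the block and centring, 344 with only the 6 libraries, 270 without CX3CL1+IFN-γ replicate 3, and with the block and a library left out between 677 and 2720, the latter without CX3CL1 replicate 2. The cause of these changes was not tested.

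For CX3CL1 against no treatment no member was called, except 1, S100A10 (adjusted p = 0.0358), with the block and without CX3CL1 replicate 2. Same-numbered libraries of these groups correlated at 0.387, 0.005 and 0.301, so the numbers were not treated as pairs, and the block moved the genes called from 232 to 455. For CX3CL1+IFN-γ against IFN-γ no member was called under any alternative, and the genes called numbered 43, 95 with the block, 142 with the block and centring, 28 without the filter and 20 with only the 6 libraries.

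Small differences that were never called changed sign. Against no treatment, S100A11 was 0.025 with quantile normalization, 0.063 without no treatment replicate 3 (with the block 0.14; over the libraries left out from -0.176) and 0.007 without CX3CL1 replicate 1 with the block, S100A6 was 0.042 (from -0.252; with the block 0.139) without CX3CL1 replicate 2, and S100A1 was 0.058 without no treatment replicate 3 with the block. Against IFN-γ, without CX3CL1+IFN-γ replicate 1 the values were -0.119 for S100A1 (with the block -0.115), -0.246 for S100A8 (with the block -0.25), 0.084 for S100A4 and, with the block, -0.037 for S100A11. S100A10 was -0.083 without IFN-γ replicate 1 (with the block -0.05), -0.001 without IFN-γ replicate 3 (with the block -0.006) and -0.049 without CX3CL1+IFN-γ replicate 2, S100A4 was 0.154 without IFN-γ replicate 2, and S100A16 was 0.003 without IFN-γ replicate 1. Over the libraries left out without the block, the range was -0.119 to 0.229 for S100A1, -0.507 to 0.154 for S100A4, -0.246 to 0.816 for S100A8, -0.083 to 0.166 for S100A10 and -0.358 to 0.003 for S100A16. Of 528 alternative values of the members over the 3 comparisons, 465 kept their direction and side of the threshold, 22 lost and 21 gained a call, and 20 changed sign. With every library in, the block changed no call of a member but those of S100A16 and S100A8.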
